A study of Homo sapiens with 24 samples.

Results

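The 46 genes described here encode proteins that carry a human cell through mitosis, from CDK1 and its cyclins to the kinetochore, the spindle, cytokinesis and the anaphase-promoting complex. They are a list of symbols, a rule that uses no measured value, but the list was chosen with earlier results of these data known. Each of the 46 matched a gene among the 61251 measured. Of these, 45 had a mean of at least 1 FPKM (fragments per kilobase of gene per unit of library depth) in at least 1 group and were tested among 13729 genes. NUSAP1 did not reach that level.

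KYSE450 is a long-established human cell line from a squamous carcinoma of the oesophagus. Messenger RNA was sequenced in 4 groups of 6 libraries: drug tolerant persister (DTP) cells of a chemoresistant line titled KYSE450DDP, the chemoresistant line itself, DTP cells of the parental line, and the parental line. Persister cells are those of a tumour population that outlive a drug exposure without a fixed resistance mutation. All groups carry the same label of wild-type genotype, were cultured in RPMI-1640 plus 10% FBS, and are labelled as having had no treatment. The labels name no drug, dose or time by which persisters were obtained, and they do not explain the suffix DDP or say whether it is 1 clone. Whether replicate libraries stem from separate cultures is not stated either, so each p-value rests on the spread among replicates that may be technical.

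A dividing cell copies its DNA, waits in G2, and enters mitosis when CDK1 bound to cyclin B is freed of inhibitory phosphates by CDC25 phosphatases. Polo and Aurora kinases then build the spindle, kinetochores attach chromosomes to microtubules, and the spindle checkpoint holds anaphase until all are attached. The anaphase-promoting complex with CDC20 next marks securin and cyclin B for destruction, and kinesins, PRC1 and anillin divide the cell. The mRNAs of these proteins are made in G2 and M, when MYBL2 with the MuvB complex and then FOXM1 act on their promoters. In resting cells the DREAM complex, which holds E2F4 and p130 (the product of RBL2), sits on the same promoters. A bulk library cannot tell fewer cells in G2 and M from less mitotic RNA in each cell.

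Library totals recovered from the FPKM ran from 14947379 to 37989445 reads. The least covered tested gene of the 45 had 72 reads in its lowest library, and a count of 0 would allow up to 3 reads, or 0.079 to 0.201 CPM. The 9 squamous markers summed to 4616, 4901 and 5087 FPKM in chemoresistant DTP libraries (lowest, median and highest), 4018, 4230 and 4699.6 FPKM in chemoresistant, 2615, 2681 and 3139.9 FPKM in parental DTP, and 4123, 4222 and 4566 FPKM in parental libraries. Markers of fibroblasts (7 genes), leukocytes (6) and endothelium (4) summed to at most 19.3, 2.63 and 1.14 FPKM in any library. Of the 6 leukocyte markers, 4 averaged under 0.1 FPKM in chemoresistant DTP, 5 in chemoresistant, 5 in parental DTP and 6 in parental libraries. The nuclear-retained RNAs (5 genes, MALAT1 and NEAT1 among them) summed to 41.5 to 58.4 FPKM in chemoresistant DTP libraries, against 32.2 to 51.6 FPKM in chemoresistant ones. They summed to 51.8 to 61.2 FPKM in parental DTP libraries, against 25.2 to 42.0 FPKM in parental ones. This sum was higher, and that of the squamous markers lower, in parental DTP than in parental libraries, and their part in the results below was not tested. Only 2 of the 5 nuclear-retained RNAs were tested. NEAT1 averaged 22.6 FPKM in parental DTP and 6.95 FPKM in parental libraries, and MALAT1 33.4 and 24.6 FPKM. Both passed as a rise, but MALAT1 did not after rescaling by relative log expression (limma adjusted p = 0.06). The squamous sum hides genes that went both ways: of the 9, 4 fell in parental DTP cells, KRT6A by the most (log2 fold change -1.30), and 3 rose (DSG3 at 1.46, SOX2 at 0.88 and TP63 at 0.80). Of all genes tested, 19.7% fell and 45.8% rose there. After rescaling the libraries by relative log expression, 6 of the 9 fell and 3 rose, beside 32.1% and 32.6% of all genes.

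The promoters of many mitosis genes hold a cell cycle genes homology region (CHR, here TTTGAA or TTTAAA) close to the start and CCAAT boxes just upstream, which are the known docking sites of MuvB and NF-Y. RefSeq (GRCh38.p14) promoters of 300 bases, from 250 before the start to 50 from it on, were at hand for 40 of the 46 genes. The others are AURKA, BUB3, TTK, BIRC5, TPX2 and UBE2C. Both strands were searched, so that TTCAAA and ATTGG also count, and the 2 motifs can share 1 base. A CHR lay between 100 bases before and 50 after the start in 32 of the 40 promoters (80%), against 11.3% of all 27305 promoters in the table and 6.1% of those of tested genes. CCAAT was present in 32 of the 40 (80%), against 35.7% of all promoters. Both together were found in 26 of the 40 (65%), against 4.52% of all promoters. Among promoters of 30 DNA replication genes, 27 were at hand and 2 of them (7.41%) had a CHR in that window, while 16 (59.3%) had CCAAT. These shares describe letters in a window and were not tested.

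The 8 promoters below belong to genes whose levels separate the groups in different ways, and 170 bases of each are printed, from 150 before the start on. Capitals mark the CHR letters near the start and the CCAAT letters. The stretches are chr5:138178962-138179131 (plus strand) for KIF20A, chr16:23678739-23678908 (plus strand) for PLK1, chr11:62123861-62124030 (plus strand) for INCENP and chr15:59104996-59105165 (plus strand) for CCNB2. They are chr1:43358831-43359000 (plus strand) for CDC20, chr18:2571407-2571576 (plus strand) for NDC80, chr4:121823864-121824033 (minus strand) for CCNA2 and chr20:3786801-3786970 (plus strand) for CDC25B.
KIF20A: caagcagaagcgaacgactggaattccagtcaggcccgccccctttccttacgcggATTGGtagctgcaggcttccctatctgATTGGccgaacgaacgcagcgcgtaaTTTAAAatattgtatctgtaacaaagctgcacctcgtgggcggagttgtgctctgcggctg
PLK1: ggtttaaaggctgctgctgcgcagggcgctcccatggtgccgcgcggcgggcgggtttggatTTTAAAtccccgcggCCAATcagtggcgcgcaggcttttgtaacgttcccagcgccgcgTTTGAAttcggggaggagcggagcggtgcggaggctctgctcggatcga
INCENP: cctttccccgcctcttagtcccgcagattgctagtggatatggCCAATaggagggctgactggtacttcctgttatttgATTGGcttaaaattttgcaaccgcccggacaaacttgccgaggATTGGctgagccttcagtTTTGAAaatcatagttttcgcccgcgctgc
CCNB2: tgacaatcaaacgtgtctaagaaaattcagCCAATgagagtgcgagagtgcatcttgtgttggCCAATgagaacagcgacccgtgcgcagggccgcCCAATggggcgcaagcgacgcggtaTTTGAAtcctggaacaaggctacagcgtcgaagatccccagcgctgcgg
CDC20: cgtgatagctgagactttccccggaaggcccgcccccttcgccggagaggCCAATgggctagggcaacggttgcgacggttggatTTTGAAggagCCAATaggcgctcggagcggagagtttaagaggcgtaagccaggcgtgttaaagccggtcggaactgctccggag
NDC80: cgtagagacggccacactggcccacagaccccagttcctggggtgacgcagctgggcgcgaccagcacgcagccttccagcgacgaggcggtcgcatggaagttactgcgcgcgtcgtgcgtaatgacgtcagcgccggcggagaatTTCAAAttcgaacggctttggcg
CCNA2: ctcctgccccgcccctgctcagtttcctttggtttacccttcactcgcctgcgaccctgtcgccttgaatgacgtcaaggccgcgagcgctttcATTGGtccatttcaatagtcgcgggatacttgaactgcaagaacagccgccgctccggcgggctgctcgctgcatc
CDC25B: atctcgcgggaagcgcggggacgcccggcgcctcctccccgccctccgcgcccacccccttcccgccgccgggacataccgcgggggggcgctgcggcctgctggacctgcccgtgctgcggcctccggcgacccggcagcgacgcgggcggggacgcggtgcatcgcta
In CCNB2 the CHR began 29 bases before the start, with CCAAT boxes 54, 87 and 120 bases before it, and PLK1 also had a CHR at 29. KIF20A had its CHR 41 bases before the start, CDC20 at 65 and INCENP at 10. NDC80 had a CHR 3 bases before the start and no CCAAT match in its 300 bases. CCNA2 had 1 CCAAT match, 56 bases before the start, and no CHR match. CDC25B had neither match in its 300 bases. For NDC80, CCNA2 and CDC25B a missing match says only that the letters searched are not in the window searched. Other forms of the CHR were not searched.

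Mitosis genes were at their highest in the parental line and lower in the other groups. Summed over the 46 genes, their level was 1052, 1110.5 and 1158 FPKM in chemoresistant DTP libraries (lowest, median and highest), 942, 1021 and 1056 FPKM in chemoresistant, 994, 1114 and 1128 FPKM in parental DTP, and 1609, 1664 and 1785 FPKM in parental libraries. No library of the other groups reached the lowest parental one. The median gene stood at 64.0% of its parental mean in chemoresistant DTP cells, at 56.2% in chemoresistant cells and at 71.5% in parental DTP cells. Of 45 genes, 38 had their highest mean in parental cells, 4 in chemoresistant DTP cells (MAD2L1, NDC80, NUF2 and HMMR), 2 in chemoresistant cells (CDC25B and CDC25C) and 1 in parental DTP cells (CENPF). The lowest mean of 33 genes was in chemoresistant cells.

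**Figure D1:**
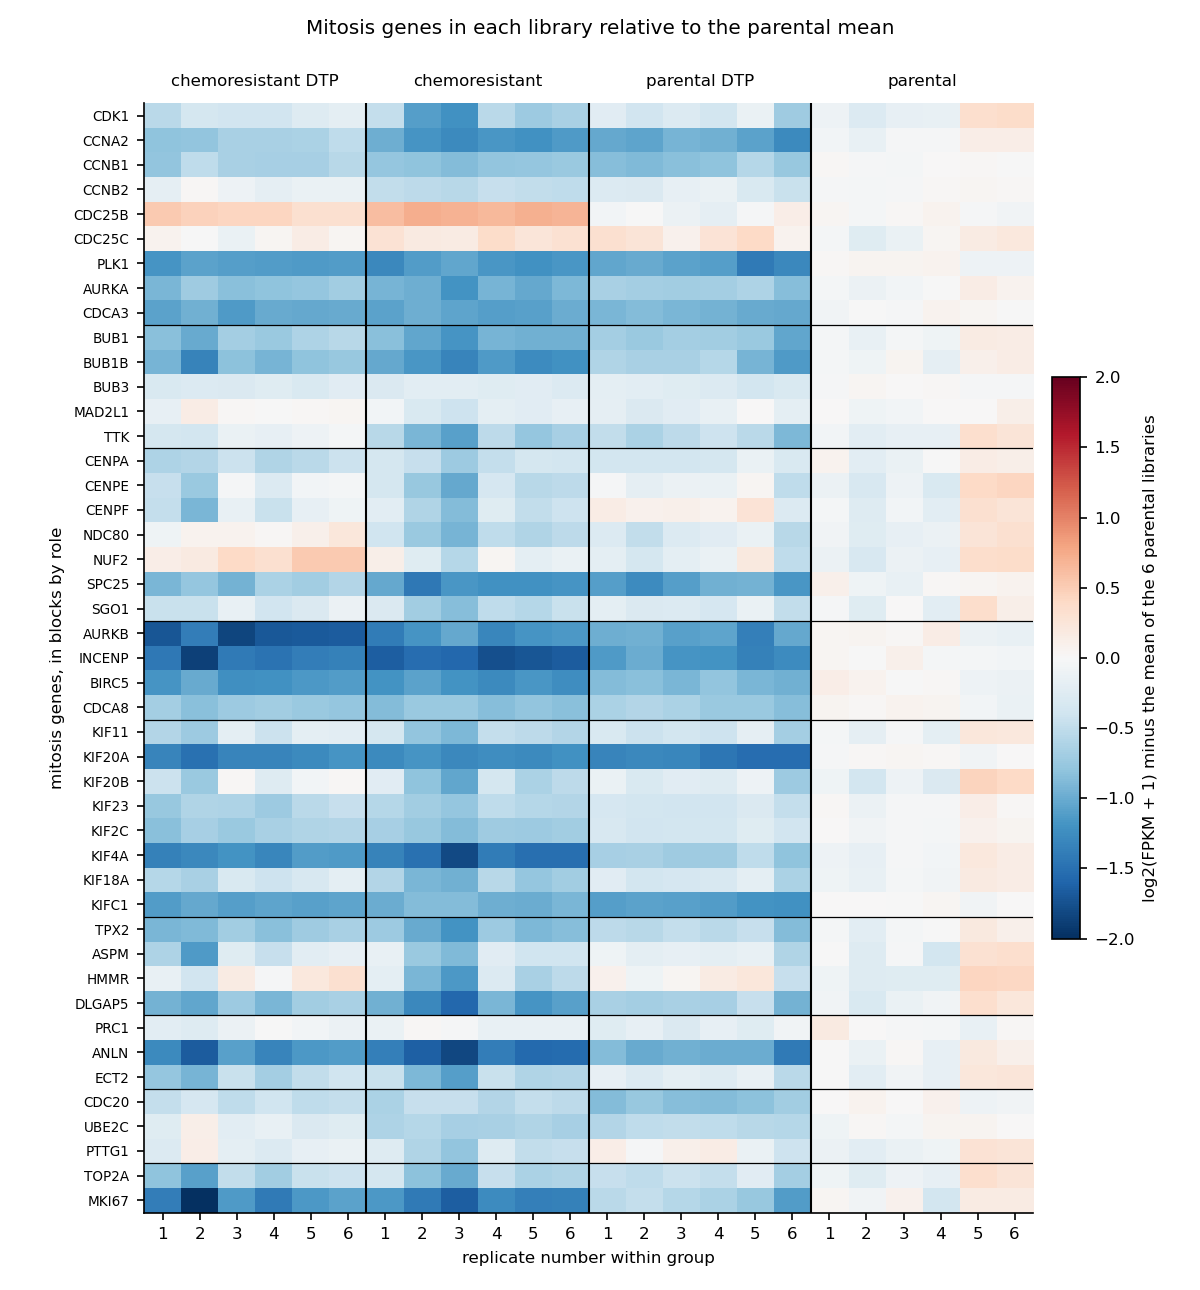
Each cell shows log2(FPKM + 1) of 1 of 45 mitosis genes (rows, in blocks by role) in 1 library (columns, 6 per group) minus the mean of the 6 parental libraries. Blue is lower and red higher than the parental mean; most genes are blue in all 3 other groups, CDC25B is red in the 12 chemoresistant and chemoresistant DTP libraries, and NUF2 is red in chemoresistant DTP libraries.

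**Figure D2:**
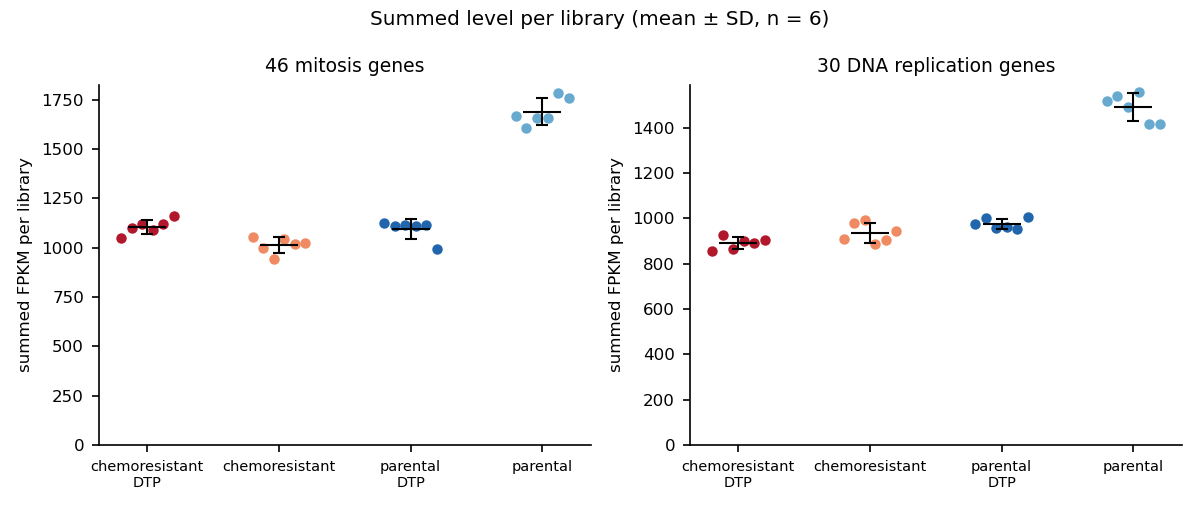
Summed FPKM per library (points) with the group mean and SD (n = 6) for the 46 mitosis genes, left, and for 30 DNA replication genes, right. Parental libraries lie at 1609 to 1785 FPKM for the mitosis genes, above all 18 others, and at 1414 to 1555 FPKM for the replication genes, also above all others.

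In parental DTP cells 36 of 45 mitosis genes fell relative to parental cells, 1 rose (CDC25C) and 8 did not pass the test (limma on log2(FPKM + 1), two-sided, Benjamini-Hochberg adjusted p under 0.05 over all 13729 genes). Over all genes tested, 19.7% fell and 45.8% rose, 65.5% in all. The median log2 fold change was -0.47 over the 45 genes and 0.14 over all genes. In 27 of the 45, every parental DTP library lay below every parental one, against 13% of all genes tested. By at least 2 fold 8 fell, a size that was not counted over all genes. Since the median gene was shifted by 0.14, values were also computed after rescaling the libraries. With relative log expression scaling 40 of the 45 fell, their median was -0.65, and the split over all genes was 32.1% lower and 32.6% higher.

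In chemoresistant cells 41 of the 45 genes fell relative to parental cells, 2 rose (CDC25B and CDC25C) and 2 did not pass (NUF2 and PRC1). Over all genes tested, 29.4% fell and 48.2% rose, 77.5% in all. The median was -0.74 over the 45 genes, against 0.14 over all genes. By at least 2 fold 13 genes fell, a size that was not counted over all genes. Libraries of the groups did not overlap for 36 genes that were lower and 1 that was higher, against 22.6% and 39.3% of all genes. With relative log expression scaling 43 fell, NUF2 and PRC1 among them, and 1 rose. The median was then -0.91, and 38.5% of all genes fell and 39.1% rose. This comparison and that of parental DTP with parental cells share the 6 parental libraries, so their changes are not independent of each other.

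Chemoresistant DTP cells had more mitosis genes up than down relative to chemoresistant cells: 20 of 45 rose, 4 fell (AURKB, CDC25B, CDC25C and KIFC1) and 21 did not pass. Over all genes tested, 20.5% rose and 27.4% fell, 48% in all. The median change was 0.16 over the 45 genes, against -0.023 over all genes, and changes ran from -0.45 to 0.68. Libraries did not overlap for 7 genes that were higher and 3 that were lower, against 10.7% and 17.2% of all genes. The number that rose was 16 to 24 when single libraries were left out.

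The persister change itself differed between the lines. As the change in chemoresistant DTP cells minus that in parental DTP cells, 38 of 45 genes had a higher value, 2 a lower one (CDC25B and CDC25C) and 5 did not pass. Over all genes tested, 20.5% had a higher and 43.4% a lower value, 63.8% in all. With relative log expression scaling the shares were 31% and 33.3%, beside 41 and 1 of the mitosis genes. The median difference was 0.70, against -0.17 over all genes. By at least 2 fold 11 genes differed, a size that was not counted over all genes. Of the 36 genes that fell in parental DTP cells, 17 rose in chemoresistant DTP cells (47.2% of the 36 and 85% of the 20 that rose) and 2 fell (AURKB and KIFC1). With 36 of 45 falling in 1 line and 20 of 45 rising in the other, an overlap near 17 follows from these counts alone. Spearman's rho between both changes, which share no library, was 0.09 across the 45 genes. Genes of 1 program are not independent points.

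Between chemoresistant DTP and parental DTP cells, mitosis genes passed in both directions, in shares no larger than those over all genes. Relative to parental DTP cells, 13 fell, 11 rose and 21 did not pass, beside 32.3% lower and 29.5% higher over all genes, 61.9% in all. The median was -0.050. The libraries did not overlap for 6 genes that were lower and 6 that were higher, against 19.8% and 16.5% of all genes.

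**Figure D3:**
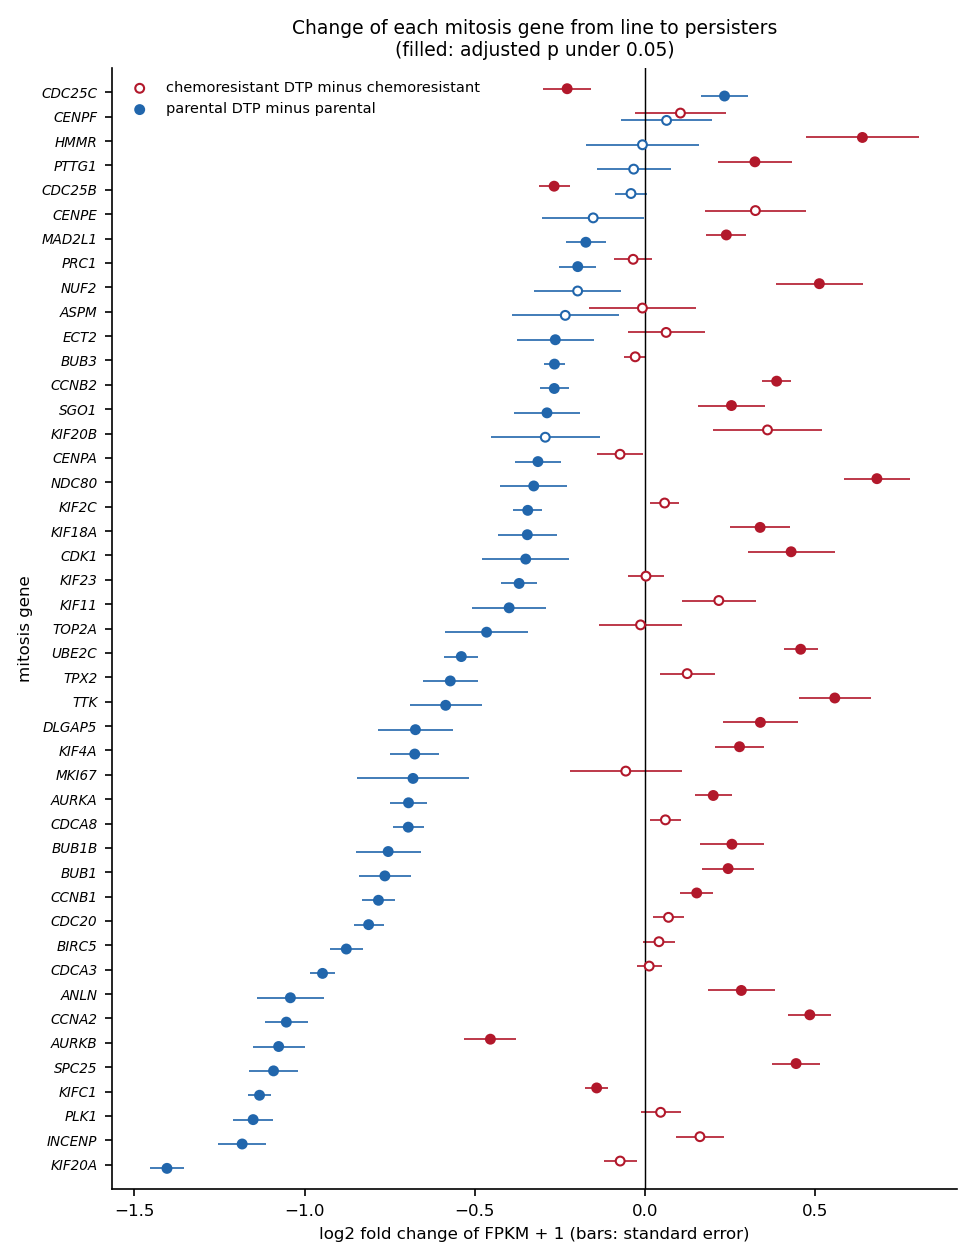
Log2 fold change (FPKM + 1) with its standard error for each of 45 mitosis genes in chemoresistant DTP against chemoresistant cells (red) and parental DTP against parental cells (blue); filled points passed the test. Blue points run from -1.40 (KIF20A) to 0.23 (CDC25C) and red points from -0.45 (AURKB) to 0.68 (NDC80), with 36 filled blue points left of 0 and 20 filled red points right of it.

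Among the 9 genes of mitotic entry, 7 fell in parental DTP cells, beside 19.7% of all genes. In chemoresistant DTP cells 5 rose and 2 fell, beside 20.5% and 27.4% of all genes. In chemoresistant against parental cells 7 fell and 2 rose, beside 29.4% and 48.2% of all genes. PLK1, the polo kinase that activates CDC25 and builds spindle poles, was at 29.4, 30.7 and 31.7 FPKM in chemoresistant DTP libraries, against 27.1, 29.6 and 32.3 FPKM in chemoresistant ones. PLK1 in parental DTP libraries was at 24.7, 31.5 and 33.3 FPKM, against 63.1, 69.2 and 70.9 FPKM in parental ones. The 3 other groups overlapped one another and all lay at less than the lowest parental library. PLK1 fell in parental DTP cells by 1.15 ± 0.059 (SE; limma adjusted p = 2.96e-14) on the log2 scale, and its log2 fold change in chemoresistant DTP cells was 0.046 ± 0.059 (SE; limma adjusted p = 0.544). CCNA2, cyclin A2 of S phase and G2, was at 17.3, 19.3 and 21.4 FPKM in chemoresistant DTP libraries, against 12.1, 13.2 and 15.2 FPKM in chemoresistant ones. CCNA2 in parental DTP libraries was at 12.2, 14.5 and 15.6 FPKM, against 27.6, 30.3 and 33.8 FPKM in parental ones. All 6 chemoresistant DTP libraries were above all chemoresistant ones, and both stayed below every parental library. The CCNA2 change was 0.48 ± 0.063 (SE; limma adjusted p = 9.1e-07) in chemoresistant DTP cells and -1.05 ± 0.063 (SE; limma adjusted p = 6.56e-13) in parental DTP cells, a difference of 1.54 ± 0.089 (SE; limma adjusted p = 4.24e-13).

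CCNB2, a B-type cyclin of CDK1, was at 37.3, 38.7 and 43.05 FPKM in chemoresistant DTP libraries, against 28.6, 29.7 and 30.7 FPKM in chemoresistant ones. CCNB2 in parental DTP libraries was at 31.2, 34.9 and 38.7 FPKM, against 41.4, 42.6 and 43.7 FPKM in parental ones. In each line the persister libraries did not overlap those of the line itself, being above them in the chemoresistant line and below them in the parental one. CCNB2 changed by 0.39 ± 0.043 (SE; limma adjusted p = 8.07e-08) in chemoresistant DTP cells and by -0.27 ± 0.043 (SE; limma adjusted p = 8.81e-06) in parental DTP cells. CCNB1, the main mitotic cyclin, ran from 61.6 to 80.8 FPKM in the libraries of the 3 lower groups, while parental libraries ran from 112 to 117 FPKM. CDK1, the kinase that drives mitotic entry, was at 12.2, 13.9 and 15.7 FPKM in chemoresistant DTP libraries, against 7.28, 10.9 and 12.8 FPKM in chemoresistant ones. CDK1 in parental DTP libraries was at 10.7, 14.5 and 16.5 FPKM, against 14.9, 16.6 and 23.7 FPKM in parental ones. Chemoresistant libraries lay below all parental ones, and the persister groups overlapped their own lines. The fall of CDK1 in parental DTP cells (-0.35 ± 0.13 (SE; limma adjusted p = 0.0196)) did not pass without parental replicate 5 or 6 or parental DTP replicate 6 (log2 fold change -0.28, limma adjusted p = 0.0581 to 0.0602).

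CDCA3, a trigger of mitotic entry that helps degrade WEE1, was at 9.03, 9.80 and 10.2 FPKM in chemoresistant DTP libraries, against 9.18, 9.47 and 10.1 FPKM in chemoresistant ones. CDCA3 in parental DTP libraries was at 9.78, 10.5 and 10.95 FPKM, against 19.8, 20.9 and 21.9 FPKM in parental ones. The ranges of both persister groups and of chemoresistant cells overlapped, far below the parental range. CDCA3 changed by -0.95 ± 0.037 (SE; limma adjusted p = 1.42e-16) in parental DTP cells and by -1.05 ± 0.037 (SE; limma adjusted p = 3.68e-18) in chemoresistant against parental cells. AURKA, a spindle pole kinase, ran from 17.3 to 26.1 FPKM in the 3 lower groups and from 37.2 to 45.1 FPKM in parental libraries.

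The CDC25 phosphatases went another way. CDC25B, the phosphatase that starts CDK1 activation, was at 89.7, 97.1 and 104 FPKM in chemoresistant DTP libraries, against 111, 116 and 120.2 FPKM in chemoresistant ones. CDC25B in parental DTP libraries was at 63.6, 69.9 and 78.8 FPKM, against 68.7, 71.8 and 75.4 FPKM in parental ones. Chemoresistant libraries were above chemoresistant DTP libraries, which were above all libraries of the parental line, while parental DTP and parental libraries overlapped. CDC25B rose in chemoresistant against parental cells (0.68 ± 0.046 (SE; limma adjusted p = 1.45e-12)) and fell in chemoresistant DTP cells (-0.27 ± 0.046 (SE; limma adjusted p = 3.73e-05)). Its change in parental DTP cells was -0.041 ± 0.046 (SE; limma adjusted p = 0.444), but it passed as a fall with relative log expression scaling, limma-voom on recovered reads or GC correction, and the difference of its persister changes (-0.23 ± 0.065 (SE; limma adjusted p = 0.00396)) did not pass under any of them. CDC25C, the phosphatase that completes CDK1 activation, was at 2.77, 3.24 and 3.56 FPKM in chemoresistant DTP libraries, against 3.62, 3.95 and 4.30 FPKM in chemoresistant ones. CDC25C in parental DTP libraries was at 3.36, 3.95 and 4.43 FPKM, against 2.49, 3.13 and 3.80 FPKM in parental ones. Only the chemoresistant pair did not overlap. CDC25C changed by -0.23 ± 0.070 (SE; limma adjusted p = 0.00929) in chemoresistant DTP cells, and by 0.23 ± 0.070 (SE; limma adjusted p = 0.00537) in parental DTP cells, a rise that did not pass with relative log expression scaling, limma-voom or GC correction.

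**Figure D4:**
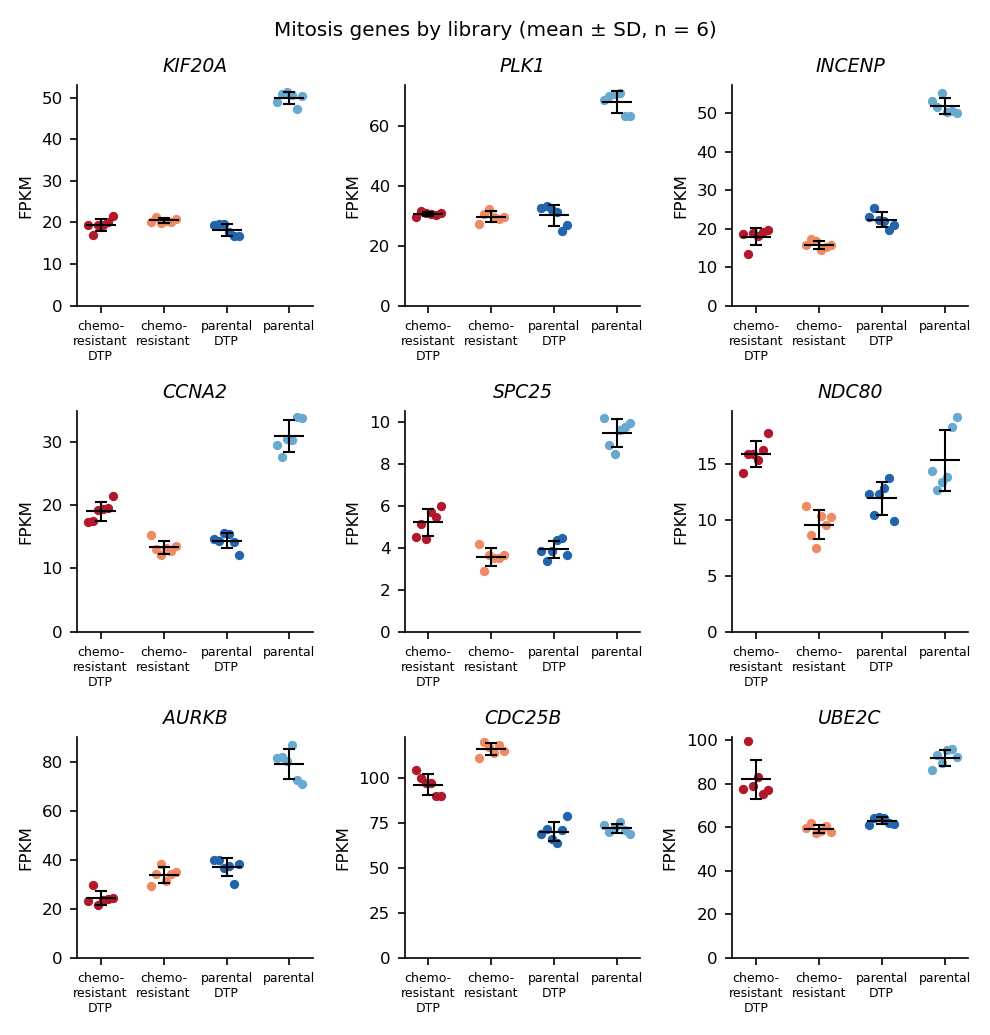
FPKM of 9 mitosis genes in each library (points, 6 per group) with the group mean and SD (n = 6), axes starting at 0. KIF20A, PLK1 and INCENP are low in every group but the parental one, NDC80 and UBE2C have chemoresistant DTP libraries above chemoresistant ones, AURKB is lowest in chemoresistant DTP libraries, and CDC25B is highest in chemoresistant ones.

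All 5 spindle checkpoint genes fell in parental DTP cells and in chemoresistant against parental cells, beside 19.7% and 29.4% of all genes. In chemoresistant DTP cells 4 rose, beside 20.5% of all genes. TTK, the MPS1 kinase at the top of the checkpoint, was at 8.48, 10.04 and 10.9 FPKM in chemoresistant DTP libraries, against 4.79, 6.43 and 7.51 FPKM in chemoresistant ones. TTK in parental DTP libraries was at 5.57, 7.47 and 8.15 FPKM, against 9.52, 10.4 and 14.4 FPKM in parental ones. The persister changes had opposite signs, with no overlap within either line. TTK changed by 0.56 ± 0.11 (SE; limma adjusted p = 0.000122) in chemoresistant DTP cells and -0.59 ± 0.11 (SE; limma adjusted p = 3.73e-05) in parental DTP cells. BUB1, a checkpoint kinase at kinetochores, was at 14.99, 18.6 and 20.8 FPKM in chemoresistant DTP libraries, against 13.2, 15.5 and 16.9 FPKM in chemoresistant ones. BUB1 in parental DTP libraries was at 14.6, 18.5 and 19.1 FPKM, against 28.04, 30.2 and 34.8 FPKM in parental ones. Parental libraries stood above all others, which overlapped. BUB1 changed by -0.76 ± 0.075 (SE; limma adjusted p = 4.46e-09) in parental DTP cells and by 0.24 ± 0.075 (SE; limma adjusted p = 0.00974) in chemoresistant DTP cells.

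BUB1B, which encodes BUBR1 of the mitotic checkpoint complex, was at 10.2, 14.4 and 15.6 FPKM in chemoresistant DTP libraries, against 10.2, 11.4 and 12.8 FPKM in chemoresistant ones. BUB1B in parental DTP libraries was at 11.9, 16.9 and 17.9 FPKM, against 23.9, 27.3 and 30.03 FPKM in parental ones. The lowest chemoresistant DTP library, replicate 2, was as low as the lowest chemoresistant one. The rise of BUB1B in chemoresistant DTP cells (0.26 ± 0.095 (SE; limma adjusted p = 0.0295)) did not pass without chemoresistant replicate 3 or 5 or chemoresistant DTP replicate 3, 5 or 6 (log2 fold changes 0.22 to 0.24, limma adjusted p = 0.0573 to 0.073). MAD2L1, MAD2, the protein that inhibits CDC20, was at 5.62, 6.53 and 7.23 FPKM in chemoresistant DTP libraries, against 4.56, 5.41 and 6.18 FPKM in chemoresistant ones. MAD2L1 in parental DTP libraries was at 5.04, 5.501 and 6.45 FPKM, against 5.97, 6.44 and 7.07 FPKM in parental ones. These groups overlapped, and the chemoresistant DTP and parental medians were nearly level. MAD2L1 changed by 0.24 ± 0.059 (SE; limma adjusted p = 0.00178) in chemoresistant DTP and -0.17 ± 0.059 (SE; limma adjusted p = 0.013) in parental DTP cells. BUB3, a scaffold of BUB1 and BUBR1, was at 30.6, 31.1 and 32.2 FPKM in chemoresistant DTP libraries, against 30.98, 32.01 and 32.7 FPKM in chemoresistant ones. BUB3 in parental DTP libraries was at 29.1, 31.6 and 33.05 FPKM, against 37.1, 37.8 and 38.99 FPKM in parental ones. BUB3 had the smallest change of the 5 between chemoresistant DTP and chemoresistant cells (-0.029 ± 0.032 (SE; limma adjusted p = 0.484)), and its fall in parental DTP cells was -0.27 ± 0.032 (SE; limma adjusted p = 1e-07).

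Of 7 kinetochore and centromere genes, 4 fell in parental DTP cells, 4 rose in chemoresistant DTP cells and 6 fell in chemoresistant against parental cells. The shares over all genes were 19.7%, 20.5% and 29.4%, in that order. SPC25, NDC80 and NUF2 encode subunits of the NDC80 complex, which grips microtubules. SPC25 was at 4.45, 5.32 and 6.02 FPKM in chemoresistant DTP libraries, against 2.90, 3.59 and 4.18 FPKM in chemoresistant ones. SPC25 in parental DTP libraries was at 3.39, 3.86 and 4.46 FPKM, against 8.47, 9.72 and 10.2 FPKM in parental ones. Chemoresistant DTP libraries lay between chemoresistant and parental ones without overlap. SPC25 changed by -1.09 ± 0.071 (SE; limma adjusted p = 2.75e-12) in parental DTP and 0.44 ± 0.071 (SE; limma adjusted p = 1.46e-05) in chemoresistant DTP cells. NDC80 was at 14.2, 15.9 and 17.8 FPKM in chemoresistant DTP libraries, against 7.499, 9.90 and 11.2 FPKM in chemoresistant ones. NDC80 in parental DTP libraries was at 9.92, 12.3 and 13.7 FPKM, against 12.7, 14.1 and 19.2 FPKM in parental ones. Every chemoresistant DTP library was above every chemoresistant and parental DTP library, and the range overlapped that of parental cells. NDC80 had the largest rise of the 45 genes in chemoresistant DTP cells, 0.68 ± 0.098 (SE; limma adjusted p = 3.63e-06), and changed by -0.33 ± 0.098 (SE; limma adjusted p = 0.00544) in parental DTP cells.

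NUF2 was at 5.60, 6.70 and 7.62 FPKM in chemoresistant DTP libraries, against 3.06, 4.33 and 5.48 FPKM in chemoresistant ones. NUF2 in parental DTP libraries was at 3.20, 4.24 and 5.85 FPKM, against 3.80, 4.53 and 6.76 FPKM in parental ones. As for NDC80, the chemoresistant DTP median of NUF2 was the highest of the 4, and its libraries lay above all chemoresistant ones. Its change was 0.51 ± 0.13 (SE; limma adjusted p = 0.00193) in chemoresistant DTP cells and -0.17 ± 0.13 (SE; limma adjusted p = 0.24) in chemoresistant against parental cells. With relative log expression scaling the latter passed as a fall. The NUF2 change in parental DTP cells was -0.20 ± 0.13 (SE; limma adjusted p = 0.181), and it passed as a fall with relative log expression scaling, limma-voom or GC correction. CENPA, the histone H3 variant of centromeres, was at 10.1, 10.6 and 11.7 FPKM in chemoresistant DTP libraries, against 9.23, 11.8 and 12.4 FPKM in chemoresistant ones. CENPA in parental DTP libraries was at 12.2, 12.3 and 14.5 FPKM, against 13.8, 16.4 and 17.8 FPKM in parental ones. Its chemoresistant DTP libraries lay below all parental DTP ones. CENPA changed by -0.31 ± 0.067 (SE; limma adjusted p = 0.000256) in parental DTP and -0.22 ± 0.067 (SE; limma adjusted p = 0.00761) in chemoresistant DTP against parental DTP cells.

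CENPF, a large kinetochore and nuclear matrix protein, was at 8.72, 13.9 and 16.3 FPKM in chemoresistant DTP libraries, against 9.003, 12.3 and 14.7 FPKM in chemoresistant ones. CENPF in parental DTP libraries was at 14.1, 18.5 and 21.004 FPKM, against 14.2, 16.6 and 21.8 FPKM in parental ones. Parental DTP and parental ranges overlapped, with a CENPF change of 0.064 ± 0.13 (SE; limma adjusted p = 0.694), while chemoresistant against parental cells gave -0.47 ± 0.13 (SE; limma adjusted p = 0.00269). CENPE, a kinetochore motor, was at 1.60, 2.91 and 3.30 FPKM in chemoresistant DTP libraries, against 1.15, 1.999 and 2.46 FPKM in chemoresistant ones. CENPE in parental DTP libraries was at 2.06, 2.99 and 3.498 FPKM, against 2.495, 3.05 and 4.87 FPKM in parental ones. Chemoresistant libraries were below all parental ones, and the persister groups overlapped their lines. CENPE fell in chemoresistant against parental cells (-0.59 ± 0.15 (SE; limma adjusted p = 0.00104)), and its log2 fold change was 0.32 ± 0.15 (SE; limma adjusted p = 0.0774) in chemoresistant DTP cells, where it passed without chemoresistant DTP replicate 2 (log2 fold change 0.42, limma adjusted p = 0.0187). SGO1, shugoshin, which guards centromeric cohesin, was at 1.56, 1.78 and 2.22 FPKM in chemoresistant DTP libraries, against 0.943, 1.42 and 1.86 FPKM in chemoresistant ones. SGO1 in parental DTP libraries was at 1.48, 1.88 and 2.18 FPKM, against 1.96, 2.48 and 3.48 FPKM in parental ones. The SGO1 rise in chemoresistant DTP cells (0.25 ± 0.097 (SE; limma adjusted p = 0.0341)) did not pass without chemoresistant replicate 2, 3 or 5 or chemoresistant DTP replicate 3, 5 or 6 (log2 fold changes 0.20 to 0.25, limma adjusted p = 0.0524 to 0.101).

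The 4 genes of the chromosomal passenger complex, which corrects wrong attachments, fell in parental DTP cells without overlap and in chemoresistant against parental cells without overlap. Of all genes, 19.7% and 29.4% fell, and 13% and 22.6% were lower without overlap. INCENP, the scaffold of the complex, was at 13.5, 18.7 and 19.7 FPKM in chemoresistant DTP libraries, against 14.6, 15.7 and 17.3 FPKM in chemoresistant ones. INCENP in parental DTP libraries was at 19.8, 22.2 and 25.5 FPKM, against 49.99, 51.1 and 55.4 FPKM in parental ones. The chemoresistant group had the lowest median, and parental libraries lay far above all others. INCENP had the largest change of the 45 genes in chemoresistant against parental cells, -1.65 ± 0.070 (SE; limma adjusted p = 1.62e-16), and changed by -1.18 ± 0.070 (SE; limma adjusted p = 4.7e-13) in parental DTP cells. In chemoresistant DTP cells its change was 0.16 ± 0.070 (SE; limma adjusted p = 0.0596) and passed without chemoresistant replicate 2 or chemoresistant DTP replicate 2 (log2 fold changes 0.19 to 0.24, limma adjusted p = 0.000403 to 0.0414). AURKB, the kinase of the complex, was at 21.5, 23.9 and 29.7 FPKM in chemoresistant DTP libraries, against 29.4, 34.3 and 38.5 FPKM in chemoresistant ones. AURKB in parental DTP libraries was at 30.002, 37.9 and 40.1 FPKM, against 70.9, 81.01 and 87.2 FPKM in parental ones. AURKB had its lowest median in chemoresistant DTP cells, where the highest library (replicate 2) reached into the chemoresistant range. It changed by -0.45 ± 0.076 (SE; limma adjusted p = 2.79e-05) in chemoresistant DTP cells, by -1.08 ± 0.076 (SE; limma adjusted p = 1.33e-11) in parental DTP cells and by -1.21 ± 0.076 (SE; limma adjusted p = 4.45e-13) in chemoresistant against parental cells.

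BIRC5, survivin, which docks the complex on centromeres, was at 21.6, 22.5 and 25.1 FPKM in chemoresistant DTP libraries, against 20.7, 22.01 and 23.98 FPKM in chemoresistant ones. BIRC5 in parental DTP libraries was at 26.1, 27.4 and 29.6 FPKM, against 47.4, 52.02 and 56.6 FPKM in parental ones. Parental DTP libraries lay between the chemoresistant pair, which overlapped, and parental libraries. BIRC5 fell in parental DTP cells (-0.88 ± 0.048 (SE; limma adjusted p = 9.76e-14)), and its log2 fold change was 0.041 ± 0.048 (SE; limma adjusted p = 0.501) in chemoresistant DTP cells. CDCA8, borealin, the fourth subunit, was at 23.5, 25.3 and 26.2 FPKM in chemoresistant DTP libraries, against 22.9, 23.9 and 25.05 FPKM in chemoresistant ones. CDCA8 in parental DTP libraries was at 23.3, 26.3 and 28.1 FPKM, against 38.8, 43.8 and 45.02 FPKM in parental ones. The 3 lower groups overlapped. CDCA8 fell in parental DTP cells (-0.70 ± 0.045 (SE; limma adjusted p = 3.15e-12)), and its log2 fold change was 0.060 ± 0.045 (SE; limma adjusted p = 0.289) in chemoresistant DTP cells.

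Of 8 kinesins, 7 fell in parental DTP cells and all 8 fell in chemoresistant against parental cells, beside 19.7% and 29.4% of all genes. In chemoresistant DTP cells 2 rose and 1 fell, near or below the 20.5% and 27.4% of all genes. KIF20A, a kinesin that brings the passenger complex to the midzone, was at 16.99, 19.4 and 21.6 FPKM in chemoresistant DTP libraries, against 19.9, 20.3 and 21.4 FPKM in chemoresistant ones. KIF20A in parental DTP libraries was at 16.6, 18.5 and 19.7 FPKM, against 47.3, 50.5 and 51.3 FPKM in parental ones. The 3 lower groups overlapped and stood far under the parental libraries. KIF20A had the largest fall of the 45 in parental DTP cells, -1.40 ± 0.049 (SE; limma adjusted p = 1.73e-17). It also fell in chemoresistant against parental cells (-1.25 ± 0.049 (SE; limma adjusted p = 3.45e-17)), and its log2 fold change was -0.073 ± 0.049 (SE; limma adjusted p = 0.229) in chemoresistant DTP cells. KIFC1, a minus-end motor that clusters spindle poles, was at 19.01, 19.6 and 20.2 FPKM in chemoresistant DTP libraries, against 20.7, 21.6 and 22.8 FPKM in chemoresistant ones. KIFC1 in parental DTP libraries was at 17.7, 19.05 and 19.6 FPKM, against 40.1, 42.8 and 43.4 FPKM in parental ones. Chemoresistant DTP libraries were just below all chemoresistant ones. KIFC1 changed by -1.13 ± 0.034 (SE; limma adjusted p = 1.07e-18) in parental DTP cells and by -0.14 ± 0.034 (SE; limma adjusted p = 0.00132) in chemoresistant DTP cells, which did not pass with GC correction.

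KIF4A, a chromosome-bound motor of the midzone, was at 8.69, 9.41 and 10.3 FPKM in chemoresistant DTP libraries, against 6.04, 7.68 and 8.80 FPKM in chemoresistant ones. KIF4A in parental DTP libraries was at 13.1, 14.3 and 16.3 FPKM, against 21.1, 22.9 and 27.5 FPKM in parental ones. Parental DTP libraries were above all chemoresistant and chemoresistant DTP libraries. KIF4A changed by -1.51 ± 0.072 (SE; limma adjusted p = 1.72e-15) in chemoresistant against parental cells, -0.68 ± 0.072 (SE; limma adjusted p = 1.57e-08) in parental DTP cells and 0.28 ± 0.072 (SE; limma adjusted p = 0.00256) in chemoresistant DTP cells. KIF18A, a motor that limits kinetochore microtubule length, was at 5.74, 7.25 and 8.21 FPKM in chemoresistant DTP libraries, against 4.47, 5.35 and 6.23 FPKM in chemoresistant ones. KIF18A in parental DTP libraries was at 5.84, 7.42 and 8.30 FPKM, against 8.58, 9.19 and 11.05 FPKM in parental ones. In each line the KIF18A change had a different sign, 0.34 ± 0.088 (SE; limma adjusted p = 0.00254) in chemoresistant DTP and -0.35 ± 0.088 (SE; limma adjusted p = 0.00137) in parental DTP cells. KIF2C, MCAK, which depolymerises wrongly attached microtubules, was at 21.2, 24.1 and 25.4 FPKM in chemoresistant DTP libraries, against 20.8, 23.02 and 23.9 FPKM in chemoresistant ones. KIF2C in parental DTP libraries was at 29.2, 29.6 and 32.5 FPKM, against 36.7, 38.3 and 40.8 FPKM in parental ones. Parental DTP libraries lay apart from both the parental ones above and the chemoresistant pair below. KIF2C changed by -0.34 ± 0.043 (SE; limma adjusted p = 2.09e-07) in parental DTP and -0.34 ± 0.043 (SE; limma adjusted p = 3.31e-07) in chemoresistant DTP against parental DTP cells.

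KIF23, MKLP1, a midbody motor, was at 9.25, 10.3 and 11.5 FPKM in chemoresistant DTP libraries, against 9.09, 10.6 and 11.1 FPKM in chemoresistant ones. KIF23 in parental DTP libraries was at 11.4, 12.4 and 13.2 FPKM, against 14.95, 16.2 and 17.9 FPKM in parental ones. Parental DTP libraries again lay below parental ones and reached into the chemoresistant DTP range. KIF23 was lower in chemoresistant DTP than in parental DTP cells (-0.25 ± 0.053 (SE; limma adjusted p = 0.000298)), and its log2 fold change was 0.0031 ± 0.053 (SE; limma adjusted p = 0.968) in chemoresistant DTP against chemoresistant cells. KIF11, the motor that pushes spindle poles apart, was at 10.3, 14.1 and 15.4 FPKM in chemoresistant DTP libraries, against 9.09, 11.8 and 13.7 FPKM in chemoresistant ones. KIF11 in parental DTP libraries was at 10.7, 13.3 and 15.5 FPKM, against 15.4, 17.4 and 20.8 FPKM in parental ones. Chemoresistant libraries were below all parental ones, with a change of -0.61 ± 0.11 (SE; limma adjusted p = 2.03e-05). The KIF11 change in chemoresistant DTP cells was 0.22 ± 0.11 (SE; limma adjusted p = 0.103) and passed without chemoresistant replicate 1 or chemoresistant DTP replicate 2 (log2 fold changes 0.27 to 0.29, limma adjusted p = 0.0263 to 0.0495). KIF20B, MPP1, a cytokinesis motor, was at 3.14, 5.21 and 6.02 FPKM in chemoresistant DTP libraries, against 2.34, 3.63 and 4.90 FPKM in chemoresistant ones. KIF20B in parental DTP libraries was at 3.15, 4.83 and 5.42 FPKM, against 4.33, 5.47 and 8.41 FPKM in parental ones. All 4 KIF20B ranges overlapped, and its change in parental DTP cells was -0.29 ± 0.16 (SE; limma adjusted p = 0.113). That change passed as a fall with relative log expression or upper-quartile scaling, limma-voom or GC correction.

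Among the 4 tested spindle assembly genes, 2 fell in parental DTP cells and 2 rose in chemoresistant DTP cells, beside 19.7% and 20.5% of all genes. All 4 fell in chemoresistant against parental cells, beside 29.4% of all genes. DLGAP5, HURP, which stabilises kinetochore fibres, was at 8.77, 10.4 and 11.8 FPKM in chemoresistant DTP libraries, against 5.73, 8.16 and 9.63 FPKM in chemoresistant ones. DLGAP5 in parental DTP libraries was at 9.39, 11.8 and 13.6 FPKM, against 15.3, 18.2 and 24.3 FPKM in parental ones. Parental libraries were above all others. DLGAP5 changed by -0.67 ± 0.11 (SE; limma adjusted p = 1.04e-05) in parental DTP, 0.34 ± 0.11 (SE; limma adjusted p = 0.0138) in chemoresistant DTP and -1.17 ± 0.11 (SE; limma adjusted p = 8.94e-10) in chemoresistant against parental cells. TPX2, the activator of Aurora A on the spindle, was at 38.8, 42.9 and 46.96 FPKM in chemoresistant DTP libraries, against 31.8, 39.6 and 44.2 FPKM in chemoresistant ones. TPX2 in parental DTP libraries was at 39.9, 50.8 and 53.3 FPKM, against 63.6, 72.5 and 84.7 FPKM in parental ones. TPX2 changed by -0.57 ± 0.081 (SE; limma adjusted p = 1.43e-06) in parental DTP and -0.90 ± 0.081 (SE; limma adjusted p = 3.68e-10) in chemoresistant against parental cells, both without overlap of libraries.

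HMMR, a spindle pole protein that is also a hyaluronan receptor, was at 17.3, 24.1 and 28.8 FPKM in chemoresistant DTP libraries, against 9.73, 14.98 and 19.96 FPKM in chemoresistant ones. HMMR in parental DTP libraries was at 16.4, 23.9 and 26.8 FPKM, against 18.9, 20.3 and 31.1 FPKM in parental ones. The ranges overlapped, and the chemoresistant DTP median was the highest of the 4. HMMR rose in chemoresistant DTP cells (0.64 ± 0.17 (SE; limma adjusted p = 0.00252)), and its log2 fold change was -0.0072 ± 0.17 (SE; limma adjusted p = 0.973) in parental DTP cells. ASPM, a spindle pole protein, was at 3.32, 6.47 and 7.52 FPKM in chemoresistant DTP libraries, against 4.14, 6.23 and 7.56 FPKM in chemoresistant ones. ASPM in parental DTP libraries was at 5.27, 7.37 and 7.95 FPKM, against 6.39, 8.41 and 11.01 FPKM in parental ones. ASPM fell in chemoresistant against parental cells (-0.47 ± 0.16 (SE; limma adjusted p = 0.00962)). Its log2 fold change in parental DTP cells was -0.23 ± 0.16 (SE; limma adjusted p = 0.195) and passed as a fall with relative log expression scaling, limma-voom or GC correction. NUSAP1, a microtubule bundling protein, ran from 0.037 to 0.204 FPKM over the 24 libraries and was not tested. In GENCODE release 29 it shares 62.2% of its exonic bases with another gene on the same strand that is listed at 0 in every library, and the split of reads between both is uncertain.

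Of 3 cytokinesis genes, all fell in parental DTP cells and 2 in chemoresistant against parental cells, beside 19.7% and 29.4% of all genes. ANLN, anillin, the scaffold of the contractile ring, was at 10.9, 15.4 and 16.8 FPKM in chemoresistant DTP libraries, against 9.75, 11.97 and 13.7 FPKM in chemoresistant ones. ANLN in parental DTP libraries was at 13.2, 17.996 and 19.7 FPKM, against 32.7, 37.1 and 42.2 FPKM in parental ones. Each of the 3 lower groups lay below all parental libraries. ANLN changed by -1.55 ± 0.099 (SE; limma adjusted p = 5.58e-13) in chemoresistant against parental cells and -1.04 ± 0.099 (SE; limma adjusted p = 2.34e-09) in parental DTP cells. Its rise in chemoresistant DTP cells (0.28 ± 0.099 (SE; limma adjusted p = 0.0211)) did not pass without chemoresistant replicate 3 or chemoresistant DTP replicate 3 or 6 (log2 fold changes 0.23 to 0.25, limma adjusted p = 0.0516 to 0.0636). ECT2, the exchange factor that activates RHOA at the equator, was at 11.8, 15.3 and 17.5 FPKM in chemoresistant DTP libraries, against 10.4, 15.1 and 16.9 FPKM in chemoresistant ones. ECT2 in parental DTP libraries was at 15.7, 19.8 and 20.97 FPKM, against 19.995, 22.7 and 27.8 FPKM in parental ones. ECT2 changed by -0.68 ± 0.11 (SE; limma adjusted p = 7.96e-06) in chemoresistant against parental cells, without overlap. Its fall in parental DTP cells (-0.26 ± 0.11 (SE; limma adjusted p = 0.0444)) did not pass without parental replicate 1, 5 or 6 or parental DTP replicate 2, 4 or 6 (log2 fold changes -0.21 to -0.26, limma adjusted p = 0.0611 to 0.116).

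PRC1, the crosslinker of midzone microtubules, was at 0.844, 1.03 and 1.20 FPKM in chemoresistant DTP libraries, against 0.996, 1.004 and 1.25 FPKM in chemoresistant ones. PRC1 in parental DTP libraries was at 0.798, 0.919 and 1.09 FPKM, against 0.992, 1.19 and 1.51 FPKM in parental ones. PRC1 shares 57.6% of its exonic bases with an unnamed gene on the same strand that was at 1.27 to 2.18 FPKM, so the split of reads between both is uncertain. It changed by -0.20 ± 0.055 (SE; limma adjusted p = 0.00309) in parental DTP cells. In chemoresistant against parental cells its change was -0.093 ± 0.055 (SE; limma adjusted p = 0.125) and passed without parental replicate 5 (log2 fold change -0.12, limma adjusted p = 0.0485). It also passed as a fall there with relative log expression scaling.

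Of the 3 genes of mitotic exit, 2 fell in parental DTP cells and 2 rose in chemoresistant DTP cells, beside 19.7% and 20.5% of all genes. All 3 fell in chemoresistant against parental cells, beside 29.4% of all genes. CDC20, the activator of the anaphase-promoting complex, was at 119, 123 and 135 FPKM in chemoresistant DTP libraries, against 110.3, 120.5 and 124 FPKM in chemoresistant ones. CDC20 in parental DTP libraries was at 93.1, 95.3 and 105 FPKM, against 159, 172 and 182 FPKM in parental ones. Parental DTP libraries were the lowest, below all chemoresistant and chemoresistant DTP libraries. CDC20 changed by -0.81 ± 0.044 (SE; limma adjusted p = 1.16e-13) in parental DTP cells, -0.52 ± 0.044 (SE; limma adjusted p = 1.21e-10) in chemoresistant against parental cells and 0.36 ± 0.044 (SE; limma adjusted p = 2.02e-07) in chemoresistant DTP against parental DTP cells. UBE2C, the ubiquitin-conjugating enzyme of that complex, was at 75.01, 78.3 and 99.5 FPKM in chemoresistant DTP libraries, against 57.4, 58.8 and 61.7 FPKM in chemoresistant ones. UBE2C in parental DTP libraries was at 61.1, 62.97 and 64.8 FPKM, against 85.99, 92.5 and 95.7 FPKM in parental ones. Chemoresistant DTP libraries lay above all chemoresistant and parental DTP ones, and the highest of them (replicate 2) was above every parental library. UBE2C changed by 0.46 ± 0.050 (SE; limma adjusted p = 6.22e-08) in chemoresistant DTP and -0.54 ± 0.050 (SE; limma adjusted p = 1.56e-09) in parental DTP cells.

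PTTG1, securin, the inhibitor of separase, was at 73.7, 78.9 and 97.9 FPKM in chemoresistant DTP libraries, against 51.3, 64.1 and 74.7 FPKM in chemoresistant ones. PTTG1 in parental DTP libraries was at 66.7, 92.2 and 98.96 FPKM, against 77.1, 83.5 and 110.0 FPKM in parental ones. The PTTG1 log2 fold change was -0.033 ± 0.11 (SE; limma adjusted p = 0.804) in parental DTP cells, whose range overlapped the parental one. Its rise in chemoresistant DTP cells (0.32 ± 0.11 (SE; limma adjusted p = 0.0166)) did not pass without chemoresistant replicate 3 (log2 fold change 0.26, limma adjusted p = 0.0526). Of the near-identical copies, CDC20P1 was at 0.768 to 3.52 FPKM and UBE2CP2 at 0.437 to 4.07 FPKM over the 24 libraries, so a small share of reads could be split between them and the genes.

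Of the 2 genes of mitotic chromosomes, both fell in parental DTP and in chemoresistant against parental cells, beside 19.7% and 29.4% of all genes. MKI67, Ki-67, the surface protein of mitotic chromosomes and a proliferation marker, was at 10.4, 23.9 and 27.4 FPKM in chemoresistant DTP libraries, against 18.03, 22.2 and 25.96 FPKM in chemoresistant ones. MKI67 in parental DTP libraries was at 26.5, 38.6 and 41.8 FPKM, against 45.2, 61.2 and 66.1 FPKM in parental ones. Chemoresistant DTP replicate 2 was at 10.4 FPKM, with the other 5 at 21.5 to 27.4 FPKM. MKI67 fell in chemoresistant against parental cells (-1.37 ± 0.16 (SE; limma adjusted p = 5.62e-08)) and in parental DTP cells (-0.68 ± 0.16 (SE; limma adjusted p = 0.000859)), and its log2 fold change was -0.056 ± 0.16 (SE; limma adjusted p = 0.799) in chemoresistant DTP cells. TOP2A, the topoisomerase that untangles sister chromatids, was at 29.5, 42.2 and 47.7 FPKM in chemoresistant DTP libraries, against 31.2, 41.4 and 50.01 FPKM in chemoresistant ones. TOP2A in parental DTP libraries was at 39.7, 45.97 and 54.5 FPKM, against 53.8, 60.1 and 80.7 FPKM in parental ones. TOP2A fell in chemoresistant against parental cells (-0.65 ± 0.12 (SE; limma adjusted p = 4.36e-05)) and in parental DTP cells (-0.47 ± 0.12 (SE; limma adjusted p = 0.00192)), and its log2 fold change was -0.013 ± 0.12 (SE; limma adjusted p = 0.942) in chemoresistant DTP cells.

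The 30 further mitosis genes outside the 46 had 24 that fell in parental DTP cells, 6 that fell and 10 that rose in chemoresistant DTP cells, and 26 that fell in chemoresistant against parental cells. Their medians were -0.42, 0.078 and -0.55, against 0.14, -0.023 and 0.14 over all genes. Over all genes tested 19.7% fell and 45.8% rose in parental DTP cells, 27.4% fell and 20.5% rose in chemoresistant DTP cells, and 29.4% fell and 48.2% rose in chemoresistant against parental cells. The 4 with the largest change in parental DTP cells were KIF18B, a motor of astral microtubules (-1.29 ± 0.085 (SE; limma adjusted p = 3.67e-12)), FAM83D, a spindle protein (-1.16 ± 0.036 (SE; limma adjusted p = 2.09e-18)), TACC3, which crosslinks kinetochore fibres (-0.77 ± 0.032 (SE; limma adjusted p = 6.4e-16)), and GTSE1, a regulator of microtubule stability (-0.74 ± 0.064 (SE; limma adjusted p = 4.35e-10)). Of 30 DNA replication genes, 25 fell and 1 rose in parental DTP cells, 9 fell and 11 rose in chemoresistant DTP cells, and 27 fell and 2 rose in chemoresistant against parental cells. The leading ones were UHRF1, which keeps DNA methylation at the fork (-1.42 in parental DTP cells), and MCM3 (-1.10), MCM5 (-1.18) and MCM4 (-1.24) of the replicative helicase. Of 13 condensin and cohesin genes, 7 fell and 1 rose in parental DTP cells, with NCAPH at -0.999, NCAPG at -0.58, SMC1A at -0.66 and STAG2 at 0.54. Of 16 tested genes of the anaphase-promoting complex and its partners, 7 fell and 3 rose in parental DTP cells, with ANAPC16 at 0.66, FBXO5 at -0.48, ANAPC2 at -0.43 and UBE2S at -0.30. With relative log expression scaling 9 of these 16 fell and 1 rose, beside 32.1% and 32.6% of all genes.

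Of 20 tested regulators of mitotic transcription, 10 fell and 5 rose in parental DTP cells, 3 fell and 3 rose in chemoresistant DTP cells, and 11 fell and 4 rose in chemoresistant against parental cells. The shares over all genes were 19.7% and 45.8% in parental DTP, 27.4% and 20.5% in chemoresistant DTP, and 29.4% and 48.2% in chemoresistant against parental cells. FOXM1, the forkhead activator of G2 and M genes, was at 24.002, 34.1 and 35.3 FPKM in chemoresistant DTP libraries, against 36.2, 36.97 and 38.3 FPKM in chemoresistant ones. FOXM1 in parental DTP libraries was at 40.2, 46.2 and 50.4 FPKM, against 61.2, 67.002 and 68.1 FPKM in parental ones. FOXM1 fell in parental DTP cells (-0.53 ± 0.070 (SE; limma adjusted p = 4.13e-07)), and chemoresistant libraries did not overlap parental ones. Its log2 fold change in chemoresistant DTP cells was -0.19 ± 0.070 (SE; limma adjusted p = 0.0288), where replicate 2 was at 24.002 FPKM and the other 5 libraries at 33.3 to 35.3 FPKM. That fall did not pass without this replicate (-0.11, limma adjusted p = 0.0516), without chemoresistant replicate 5 (-0.18, limma adjusted p = 0.0542), with GC correction (-0.10, limma adjusted p = 0.223), with no filter (limma adjusted p = 0.0624) or with only the 12 libraries compared (limma adjusted p = 0.0701). MYBL2, B-MYB, which joins MuvB in S phase, was at 65.4, 66.98 and 67.7 FPKM in chemoresistant DTP libraries, against 51.4, 57.97 and 61.4 FPKM in chemoresistant ones. MYBL2 in parental DTP libraries was at 56.9, 67.02 and 74.6 FPKM, against 99.3, 115 and 119 FPKM in parental ones. MYBL2 changed by -0.75 ± 0.059 (SE; limma adjusted p = 9.64e-11) in parental DTP and 0.22 ± 0.059 (SE; limma adjusted p = 0.00392) in chemoresistant DTP cells. E2F4, an E2F of the DREAM complex, was at 57.3, 58.9 and 64.7 FPKM in chemoresistant DTP libraries, against 52.7, 55.5 and 58.6 FPKM in chemoresistant ones. E2F4 in parental DTP libraries was at 64.2, 76.9 and 79.7 FPKM, against 87.9, 97.05 and 101 FPKM in parental ones. E2F4 was highest in parental libraries, and its change in parental DTP cells was -0.37 ± 0.051 (SE; limma adjusted p = 1.15e-06). RBL2, p130 of the DREAM complex, was at 5.82, 8.58 and 9.24 FPKM in chemoresistant DTP libraries, against 7.93, 8.97 and 9.87 FPKM in chemoresistant ones. RBL2 in parental DTP libraries was at 8.76, 9.13 and 10.9 FPKM, against 5.91, 6.09 and 7.500 FPKM in parental ones. RBL2 went the other way, with 0.48 ± 0.084 (SE; limma adjusted p = 2.65e-05) in parental DTP cells and 0.42 ± 0.084 (SE; limma adjusted p = 7.07e-05) in chemoresistant against parental cells.

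E2F1, an activator of S phase genes, fell in parental DTP cells (-0.41 ± 0.059 (SE; limma adjusted p = 1.34e-06)), and its log2 fold change was 0.078 ± 0.059 (SE; limma adjusted p = 0.286) in chemoresistant DTP cells, where it passed as a rise with GC correction (0.199, limma adjusted p = 0.000101). LIN9, a MuvB subunit, had a log2 fold change of 0.14 ± 0.096 (SE; limma adjusted p = 0.193) in parental DTP cells and passed as a rise without parental replicate 5 (0.21, limma adjusted p = 0.0495). The other leading regulators in parental DTP cells were TFDP2 (0.74) and TFDP1 (-0.63), which are E2F partners, and the repressor E2F8 (-0.72).

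Of 10 genes that brake mitotic entry, 4 rose and 3 fell in parental DTP cells, 3 rose and none fell in chemoresistant DTP cells, and 7 rose and 3 fell in chemoresistant against parental cells. Over all genes tested 45.8% rose and 19.7% fell in parental DTP, and 20.5% rose and 27.4% fell in chemoresistant DTP cells. In chemoresistant against parental cells 48.2% rose and 29.4% fell. The 4 of 10 that rose in parental DTP cells were near the share over all genes. With relative log expression scaling 4 of the 10 rose and 5 fell in parental DTP cells, where the list's median turned to -0.062, against 0.069 without it, and 5 rose and 3 fell in chemoresistant against parental cells. CDKN1A, p21, the inhibitor of cyclin-dependent kinases, was at 8.81, 11.1 and 12.2 FPKM in chemoresistant DTP libraries, against 4.02, 4.74 and 5.70 FPKM in chemoresistant ones. CDKN1A in parental DTP libraries was at 1.98, 2.54 and 2.60 FPKM, against 0.821, 1.27 and 1.36 FPKM in parental ones. None of the 4 ranges overlapped, in the order parental, parental DTP, chemoresistant and chemoresistant DTP from low to high. CDKN1A changed by 0.66 ± 0.082 (SE; limma adjusted p = 2.17e-07) in parental DTP cells, 1.02 ± 0.082 (SE; limma adjusted p = 3.55e-10) in chemoresistant DTP cells and 1.42 ± 0.082 (SE; limma adjusted p = 7.67e-14) in chemoresistant against parental cells. At such low parental levels log2(FPKM + 1) understates the change. The difference of its persister changes did not pass with a pseudocount of 0.1 (0.16, limma adjusted p = 0.404) or limma-voom (0.34, limma adjusted p = 0.0833). WEE1, the kinase that puts the inhibitory phosphate on CDK1, was at 6.17, 6.79 and 7.64 FPKM in chemoresistant DTP libraries, against 5.40, 6.38 and 7.09 FPKM in chemoresistant ones. WEE1 in parental DTP libraries was at 6.68, 7.38 and 9.02 FPKM, against 4.57, 5.14 and 5.94 FPKM in parental ones. WEE1 changed by 0.45 ± 0.070 (SE; limma adjusted p = 4.75e-06) in parental DTP cells and PKMYT1, its membrane-bound relative, by -0.22 ± 0.069 (SE; limma adjusted p = 0.00857). GADD45A, a stress-induced inhibitor of CDK1, and SFN, a 14-3-3 protein that keeps CDK1 out of the nucleus, changed by 1.502 and -0.74 in parental DTP cells. CDKN1B, p27, another inhibitor of cyclin-dependent kinases, changed by 0.55 ± 0.084 (SE; limma adjusted p = 4.01e-06) there.

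**Figure D5:**
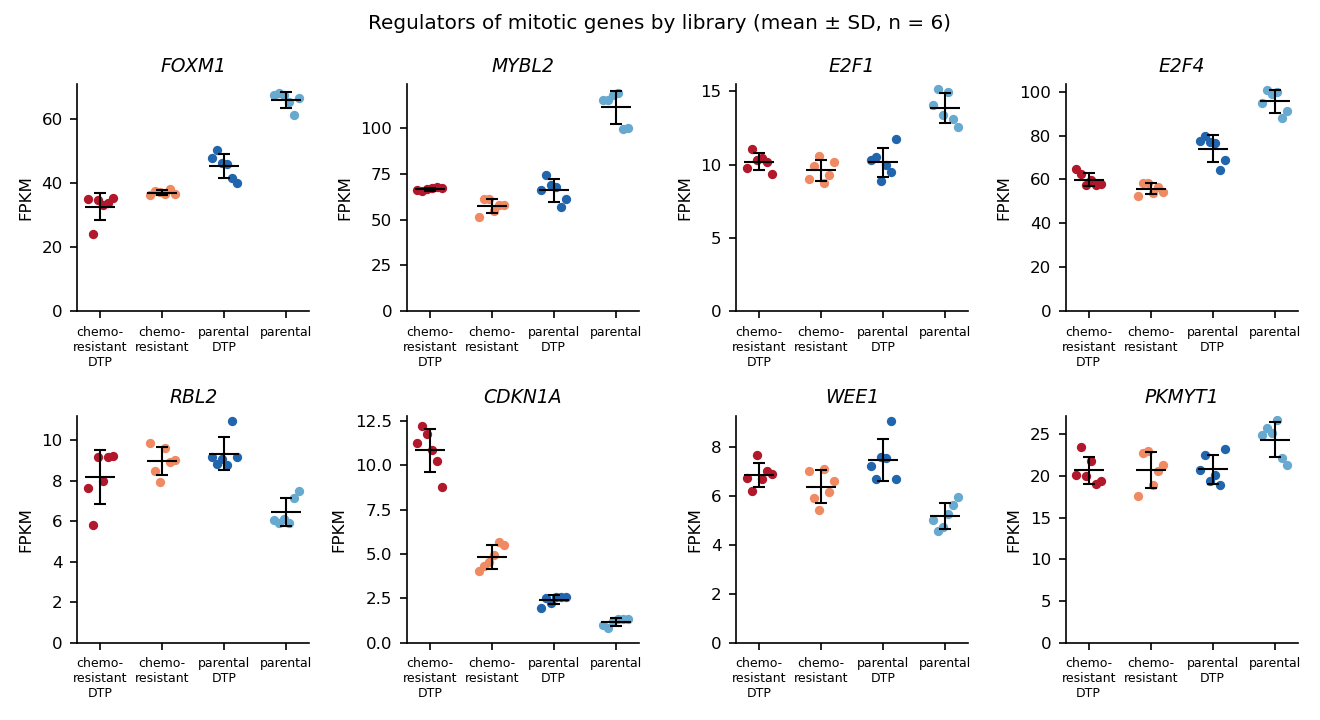
FPKM of 8 regulators of mitotic genes in each library (points, 6 per group) with the group mean and SD (n = 6), axes starting at 0. FOXM1, MYBL2, E2F1 and E2F4 are highest in parental libraries, RBL2 has its lowest mean there, and CDKN1A is highest in chemoresistant DTP libraries.

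The transcripts of the 45 tested genes had a median GC content of 43.2%, against 48.7% over all genes tested. Deviations of single libraries from their group followed gene GC content, at Spearman's rho from -0.64 to 0.655 by library. Across the 45 genes rho between GC content and the change was -0.43 in parental DTP and -0.55 in chemoresistant DTP cells. After correction for GC content it was -0.33 and -0.32, 41 of the 45 fell in parental DTP cells, against 33.9% of all genes. In chemoresistant DTP cells 28 rose and 3 fell after it, against 26.4% and 26.9% of all genes. Genes with both promoter motifs (25 tested) had a median change of -0.40 in parental DTP cells, against -0.35 for the 14 tested genes that had a promoter without both. In chemoresistant DTP cells these medians were 0.10 and 0.25. Of the 46 genes, 8 share over 5% of their exonic bases with a gene on the opposite strand, and without a stated strand setting reads from such partners cannot be told apart.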

How the data were processed

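Messenger RNA was measured in 24 libraries, 6 per group, with groups and replicate numbers taken from the sample labels. The authors deposited 1 table of FPKM values for 61251 genes, per the file headers; 23 torn lines without values were left out. Per the submitters' processing notes the genome build is GRCh38; aligner, counter, annotation release and strand setting were not stated. GENCODE release 29 holds 58337 of the gene IDs (95.24%). FPKM values were whole multiples of 1 read in each library for all 41101 genes above 0, within 0.02 reads or a relative 5e-08, and gave library totals of 14947379 to 37989445 reads, which limit precision by counting error only. PCR duplicates cannot be told from molecules here.

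Values were tested as log2(FPKM + 1) in R 4.3.3 by limma 3.58.1, its prior variance following a trend in the mean. This is a scale that understates changes of low genes. The 4 group means were fitted to all 24 libraries, for the 13729 genes that averaged 1 FPKM or more in any group. Tests were two-sided, with Benjamini-Hochberg adjustment over all these genes and a threshold of 0.05. The script was tested on simulated data with known changes. Members were placed in 9 roles, and values per group are the lowest, median and highest library. Up to 3 members per role with the largest called change in each comparison, and the one with the smallest change, are given with values in every group; other genes are the 4 per list with the largest change in parental DTP cells and a fixed set of regulators. The members, lists and rules were chosen with earlier results of these data known, so no list is independent evidence. Same-numbered libraries did not deviate together (correlation over 0.1 in 12 of 36 pairs), so the numbers were not treated as pairs. Other settings tried were upper-quartile and relative log expression scaling, a pseudocount of 0.1, no filter or a mean of at least 5 FPKM, only the 12 libraries compared, a replicate block, limma-voom on recovered reads, GC correction, and leaving libraries out. Promoter motifs were searched in Python 3.11.15 in RefSeq sequences (GRCh38.p14), 1 per gene symbol. 1 gene of the list of brakes on mitotic entry is not reported here.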

Additional observations from a re-analysis of the deposited data

Results flagged for a closer look

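Dixon's test was applied to the 46 genes in each of the 4 groups of 6 libraries, 184 cases, and marked 17 (9.24%); chance marks about 1 in 20. Parental DTP replicate 6, the shallowest library, was the lowest for AURKA (21.9 FPKM, others 24.6 to 26.1), BUB1 (14.6, others 18.1 to 19.1), KIF20B (3.15, others 4.59 to 5.42) and TPX2 (39.9, others 49.9 to 53.3). It was also the lowest for ASPM (5.27, others 7.28 to 7.95), ANLN (13.2, others 17.8 to 19.7) and ECT2 (15.7, others 19.2 to 21.0). For this library, Spearman's rho between gene GC content and the deviation from the group mean was 0.53. The part of depth or GC content in these values was not tested. Chemoresistant DTP replicate 2 was the lowest for MKI67 (10.4 FPKM, others 21.5 to 27.4), INCENP (13.5, others 18.01 to 19.7) and BUB1B (10.2, others 13.7 to 15.6). The same library was the highest for UBE2C (99.5 FPKM, others 75.0 to 82.9), PTTG1 (97.9, others 73.7 to 81.2) and AURKB (29.7, others 21.5 to 24.3). In it, Spearman's rho between gene length and the deviation from the group mean was -0.41. Parental DTP replicate 5 was the lowest for AURKB (30.002 FPKM, others 36.9 to 40.1) and the highest for CENPA (14.5, others 12.2 to 12.8). Parental DTP replicate 3 was the highest for NUSAP1 (0.204 FPKM, others 0.109 to 0.139), and parental replicate 5 the lowest for KIFC1 (40.1 FPKM, others 42.3 to 43.4).

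The persister change differed between the lines by the interaction test in limma for each of the following genes, all with a higher log2 change in chemoresistant DTP cells than in parental DTP cells. Among entry genes it differed by 1.54 for CCNA2, 1.20 for PLK1 and 0.96 for CDCA3. In the checkpoint it differed by 1.14 for TTK, 1.01 for BUB1B and 1.01 for BUB1. At the kinetochore the values were 1.54 for SPC25, 1.01 for NDC80 and 0.71 for NUF2. In the passenger complex they were 1.34 for INCENP, 0.92 for BIRC5 and 0.76 for CDCA8. For kinesins they were 1.33 for KIF20A, 0.99 for KIFC1 and 0.95 for KIF4A. Spindle assembly and cytokinesis genes gave 1.01 for DLGAP5, 0.70 for TPX2, 0.65 for HMMR and 1.32 for ANLN. Exit and chromosome genes gave 0.997 for UBE2C, 0.88 for CDC20, 0.36 for PTTG1, 0.63 for MKI67 and 0.45 for TOP2A. Limma adjusted p-values ran from 1.42e-14 (KIFC1) to 0.0464 (PTTG1). The PTTG1 difference did not pass without parental replicate 5 or 6 or parental DTP replicate 2, 5 or 6 or chemoresistant replicate 2, 3, 5 or 6 or chemoresistant DTP replicate 2, 3, 5 or 6 (log2 fold changes 0.28 to 0.36, limma adjusted p = 0.053 to 0.0909), and that of TOP2A did not pass without parental replicate 5 or chemoresistant replicate 3 (log2 fold changes 0.38 to 0.39, limma adjusted p = 0.0513).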

How the results depend on the processing

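No called result of a mitosis gene changed direction under any alternative. In parental DTP against parental cells, limma counted 1 gene that rose (CDC25C), and 0 (also 0 at an unadjusted p under 0.05) under relative log expression scaling, the filter at 5 FPKM, which leaves CDC25C out, limma-voom, and GC correction without or with the replicate block. In chemoresistant against parental cells, the 2 genes that rose were 1 under relative log expression scaling, the filter at 5 FPKM and limma-voom. The 2 genes with a lower persister change in chemoresistant than in parental cells were 1 under these alternatives and GC correction without or with the replicate block. Over all 13729 genes, relative log expression scaling raised the genes that fell in parental DTP cells to 4413, against 2711 without it. A replicate block left the counts as they were, with 36 genes lower and 1 higher in parental DTP cells, and 4 lower and 20 higher in chemoresistant DTP cells. Same-numbered libraries had correlations of -0.385 to 0.403, and 8 of 72 matched their own number best. With 1 library left out, the genes that fell numbered 34 to 36 in parental DTP, 4 in chemoresistant DTP, 41 to 42 in chemoresistant against parental, and 11 to 16 in chemoresistant DTP against parental DTP cells. Those that rose numbered 1, 16 to 24, 2, and 11 to 12, and the difference was higher for 35 to 40 and lower for 2 genes. Of 225 results for single genes, 23 changed their call with 1 library left out and 39 under other alternatives. Among genes outside the 46, PKMYT1, at -0.00021 in chemoresistant DTP cells, turned to 0.15 and passed with GC correction without or with the replicate block. Depth limits SGO1 most among the tested genes, with 72 reads in its lowest library.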
